A study of Mus musculus with 10 samples.

Results

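Branched-chain amino acid breakdown was followed here through 10 genes, Bcat2, Bckdha, Bckdhb, Dbt, Bckdk, Ivd, Mccc1, Mccc2, Hibch and Hibadh, chosen by gene symbol from the 23420 genes counted in each library. The series compared livers of 5 fed and 5 starved male C57BL/6 mice aged 4 months, with 1 RNA-seq library per mouse. Fed mice (labelled AL) received standard chow for 48 hours, and starved mice (labelled ST) had water but no food for the same time. No genotype, transgene or drug is given in the labels, and both groups share strain, sex and age. The title of the study concerns β-hydroxybutyrylation of histone lysines, and starvation is the only condition compared in these libraries.

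Leucine, isoleucine and valine are the branched-chain amino acids. A mitochondrial transaminase, BCAT2, first removes their amino group, and the branched-chain keto acid dehydrogenase complex (BCKDH) then commits the carbon skeletons to oxidation. This complex has a decarboxylase made of the BCKDHA and BCKDHB subunits, a transacylase core (DBT) and a dihydrolipoamide dehydrogenase shared with other complexes. BCKDK phosphorylates and inactivates the complex, and the phosphatase PPM1K reactivates it. Leucine carbon next passes through isovaleryl-CoA dehydrogenase (IVD) and methylcrotonyl-CoA carboxylase, a biotin enzyme built of MCCC1 and MCCC2, whereas valine carbon passes through the hydrolase HIBCH and the dehydrogenase HIBADH. Liver is known for a high activity of BCKDH and for little transaminase, so that much of the transamination takes place in muscle and other tissues.

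Few members passed the test after starvation. Dbt, the transacylase core, rose from 58.8 ± 5.26 to 82.5 ± 14.2 CPM (mean ± SD, n = 5 per group, CPM being reads scaled to a common library size after TMM normalisation between libraries), a log2 fold change of 0.49 ± 0.12 (SE). Hibadh, of valine breakdown, fell from 293 ± 20.9 to 208 ± 45.9 CPM, a log2 fold change of −0.49 ± 0.15. These were 2 of 10 members called at an adjusted p under 0.05 (quasi-likelihood test of edgeR, Benjamini-Hochberg over the whole table), 1 higher and 1 lower, beside 38.6% of all 12796 tested genes (18.6% higher and 20.0% lower). The other 8 did not pass. The median log2 fold change of the members was 0.17, against 0.00 over all tested genes, and their median absolute log2 fold change was 0.22, against 0.37. Starved library 2 differed most from its group, and without it 6 of 10 members were called, Bcat2, Bckdk, Dbt, Hibch and Mccc1 higher and Hibadh lower, beside 43.4% of all tested genes (21.4% higher and 22.0% lower). Without starved libraries 2 and 4, which deviated most, the same 6 members were called in the same directions, 5 higher and 1 lower, beside 40.9% of all tested genes (20.2% higher and 20.7% lower). In bulk liver RNA, fewer cells of a type and less RNA per cell cannot be told apart.

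The promoters of 3 genes are shown because their genes carry the results that follow. They are the consecutive valine enzymes Hibch and Hibadh, whose read ratio is reported below, and the kinase gene Bckdk. Like Bcat2, Hibch and Mccc1, Bckdk was called only in fits without starved library 2. Each promoter runs from 250 bases before to 50 bases after the RefSeq start (build GRCm38.p6), 5′ to 3′ on the strand of the gene. Capitals mark matches to the CCAAT box (CCAAT) and the GC box (GGGCGG) on either strand, and where 3 GC boxes of Hibch touch, neighbours share a base.
Hibch, chr1:52844788-52845087, plus strand: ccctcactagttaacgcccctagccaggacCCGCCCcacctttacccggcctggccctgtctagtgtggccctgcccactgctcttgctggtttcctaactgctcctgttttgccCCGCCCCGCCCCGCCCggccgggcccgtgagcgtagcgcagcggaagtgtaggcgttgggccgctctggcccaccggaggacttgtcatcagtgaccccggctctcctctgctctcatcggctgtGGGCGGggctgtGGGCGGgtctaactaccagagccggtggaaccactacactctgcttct
Hibadh, chr6:52640251-52640550, minus strand: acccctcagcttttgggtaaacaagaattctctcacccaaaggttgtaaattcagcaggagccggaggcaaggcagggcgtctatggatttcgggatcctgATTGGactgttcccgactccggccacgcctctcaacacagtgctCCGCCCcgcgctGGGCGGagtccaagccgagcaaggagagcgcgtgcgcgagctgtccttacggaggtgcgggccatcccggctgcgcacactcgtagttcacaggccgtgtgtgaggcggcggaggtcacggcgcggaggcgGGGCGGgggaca
Bckdk, chr7:127903823-127904122, plus strand: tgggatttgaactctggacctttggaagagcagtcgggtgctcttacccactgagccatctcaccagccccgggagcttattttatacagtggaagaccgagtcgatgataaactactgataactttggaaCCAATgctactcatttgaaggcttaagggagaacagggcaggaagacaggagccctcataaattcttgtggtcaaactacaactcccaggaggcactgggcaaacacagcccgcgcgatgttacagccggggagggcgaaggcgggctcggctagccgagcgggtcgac
Hibch had 6 GC boxes and no CCAAT box, Hibadh had 3 GC boxes and 1 CCAAT box, and Bckdk had 1 CCAAT box and no GC box. GC content of these windows was 66.3%, 64% and 54%, beside a median of 52.7% over 32851 promoters of the same length. Of the 9 members with an entry, 6 held a CCAAT box and 4 a GC box, beside 37.4% and 35.7% of all promoters. An E-box (CACGTG) lay in the Mccc2 promoter and in 7.15% of all promoters. The cAMP response element (TGACGTCA) was found in 0 of the 9, beside 1.79% of all promoters. Dbt was not matched.

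All 10 members passed the low-count filter. The libraries held 23.0 to 29.9 M reads assigned to genes in the fed group and 18.2 to 28.1 M in the starved group. Starved library 2 deviated from the median of its group by a median of 0.37 on the log2 scale over tested genes and starved library 4 by 0.17, while the other 8 libraries lay between 0.07 and 0.11 from their own group median. In starved library 2, 38.6% of tallied reads aligned to more than 1 place, beside 40.7% to 48.4% in the other starved libraries. It was the lowest of the starved libraries for 7 of 10 members and the highest for 2, beside 35.8% and 32.8% of all tested genes. No pair of libraries of a group matched within sampling noise (chi-square per degree of freedom 11.7 or more). Nothing in the labels says that libraries of a group were prepared in different batches.

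**Figure D1:**
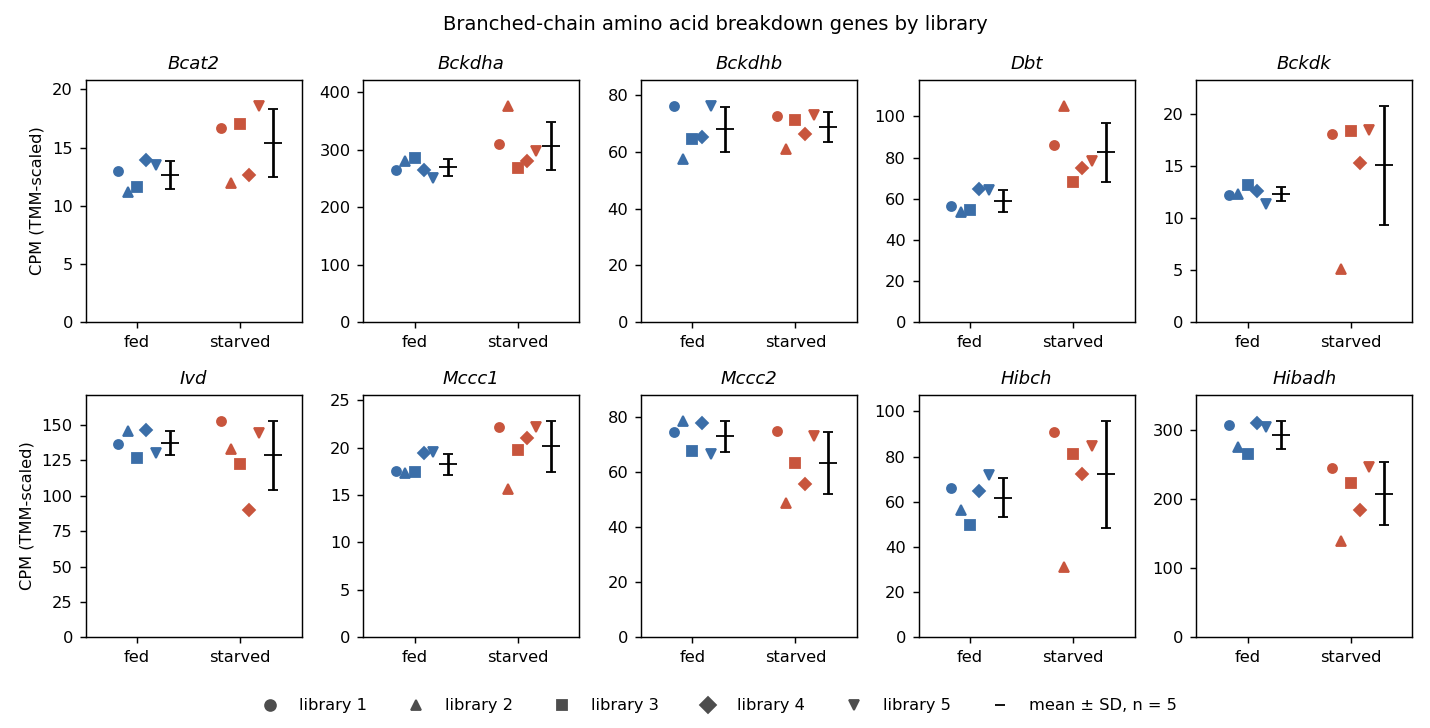
CPM (TMM-scaled, linear axis from 0) of the 10 members in every library, fed in blue and starved in red, with 1 marker shape per library number and the mean ± SD (n = 5) beside the points. Groups are fully separated only for Dbt and Hibadh, and starved library 2 (triangle) lies far below the other starved libraries for Bckdk (5.13 CPM) and Hibch (31.2 CPM).

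Bcat2, the mitochondrial transaminase of the first step, did not pass with all libraries. Fed libraries 1 to 5 held 13.0, 11.2, 11.7, 13.9 and 13.5 CPM, and starved libraries 1 to 5 held 16.7, 11.97, 17.0, 12.6 and 18.6 CPM. Starved libraries 1, 3 and 5 were above every fed library, whereas 2 and 4 lay within the fed range. The log2 fold change of Bcat2 was 0.28 ± 0.14 (95% interval −0.03 to 0.59, edgeR adjusted p = 0.14) with all libraries and 0.37 ± 0.12 (edgeR adjusted p = 0.0309) without starved library 2. Bcat2 (chromosome 7, 45570153 to 45589711, mm10, plus strand) shares 622 bp of exon, 15.9% of its exons, with the antisense gene 0610005C13Rik, with means of 155 CPM (fed) and 167 CPM (starved) (log2 fold change 0.10, edgeR adjusted p = 0.68). The strand setting of the counting is not given in the sources used here, so reads in the shared part may belong to either gene or may have been set aside as ambiguous. Bcat1, the cytosolic transaminase, had 0 to 8 reads per library and was not tested.

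The decarboxylase subunits of BCKDH did not pass the test. Bckdha ranged from 250.4 to 285 CPM in fed and from 268 to 377 CPM in starved libraries, and its highest value was that of starved library 2. Its log2 fold change was 0.19 ± 0.11 (95% interval −0.06 to 0.43, edgeR adjusted p = 0.20). Bckdha (chromosome 7, 25629946 to 25658981, minus strand) shares 1171 bp, 61.7% of its exons, with the gene B3gnt8 on the opposite strand, which rose from 0.593 to 1.05 CPM (log2 fold change 0.80 ± 0.25, edgeR adjusted p = 0.0240). Reads in that shared part may likewise belong to either gene or may have been set aside as ambiguous. The level of Bckdha and its ratios to other genes may therefore lack reads of that part. Bckdhb (chromosome 9, 83925145 to 84124240, plus strand) ranged from 57.5 to 76.1 CPM in fed and from 60.9 to 72.7 CPM in starved libraries. Its log2 fold change of 0.02 ± 0.11 had a 95% interval of −0.21 to 0.25 (edgeR adjusted p = 0.90), and with library totals alone as scaling it was −0.14. Within each library the log2 ratio of Bckdha to Bckdhb reads was 1.998 ± 0.24 in fed and 2.15 ± 0.28 in starved liver (exact two-sided permutation p = 0.40, adjusted p = 0.69 over 7 ratios).

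Dbt encodes the core to which both other components of the complex bind. It lies on chromosome 3 (116513070 to 116549981, plus strand). Fed libraries 1 to 5 held 56.6, 53.8, 54.7, 64.8 and 64.2 CPM, and starved libraries 1 to 5 held 86.0, 105, 68.1, 75.0 and 78.3 CPM. Every starved library was above every fed library, and the largest value was that of starved library 2. Groups did not overlap, in either direction, in 2 of 10 members (Dbt and Hibadh) and in 29.9% of all tested genes. The rise of Dbt (95% interval 0.22 to 0.76, edgeR adjusted p = 0.00969) was 0.40 without starved library 2 and 0.32 with library totals alone as scaling (edgeR adjusted p = 0.0439). Library totals alone moved the median log2 fold change of all tested genes to −0.15 and the share of called genes that were higher from 48.2% to 29.9%. In absolute size, 39.2% of tested genes changed more than Dbt.

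Whether Bckdk, the kinase that switches the complex off, was called depended on 1 library. Fed libraries 1 to 5 held 12.2, 12.3, 13.2, 12.6 and 11.3 CPM, a spread of 0.674 (SD), and starved libraries 1 to 5 held 18.1, 5.13, 18.4, 15.3 and 18.5 CPM. Thus starved libraries 1, 3, 4 and 5 were above every fed library and starved library 2, with 96 reads, was below every fed library. With all libraries the log2 fold change was 0.29 ± 0.27 (95% interval −0.30 to 0.88, edgeR adjusted p = 0.41), and Bckdk was not called. Without starved library 2 it rose by 0.52 ± 0.09 (95% interval 0.32 to 0.73, edgeR adjusted p = 0.00111). No other gene's exons overlap those of Bckdk (chromosome 7, 127904082 to 127910221, plus strand) in the annotation used.

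Ratios of reads within a library, which do not depend on library scaling, set the kinase against its substrate and against the opposing phosphatase. The log2 ratio of Bckdk to Bckdha was between −4.51 and −4.40 in the 5 fed libraries, between −4.20 and −3.86 in starved libraries 1, 3, 4 and 5, and −6.19 in starved library 2. The difference between group means was −0.02 (exact two-sided permutation p = 1, adjusted p = 1), and 0.41 without starved library 2 (exact p = 0.00794, adjusted p = 0.0185). Leaving out the only starved library below the fed range separates the groups, so this exact p is the smallest that 5 against 4 libraries allow. For Bckdk to Bckdhb the difference was 0.13 (exact permutation adjusted p = 0.97), and 0.44 without that library (adjusted p = 0.0222). There too, starved library 2 (−3.56) was the only starved library below the fed range, and leaving it out separates the groups. With starved library 4 left out as well, the difference was 0.48 and did not pass (exact permutation adjusted p = 0.0625). For Bckdk to Dbt it was −0.32 (exact permutation adjusted p = 0.97), and 0.12 without that library (adjusted p = 0.41), so the ratio of kinase to core did not pass in either case. Ppm1k, the phosphatase gene, held 145 to 210 CPM in fed and 105 to 170 CPM in starved liver (log2 fold change −0.39 ± 0.16, edgeR adjusted p = 0.067). The log2 ratio of Bckdk to Ppm1k differed by 0.55 between the groups (exact permutation adjusted p = 0.48), and by 0.91 without starved library 2 (adjusted p = 0.0185). The values there were −4.09 to −3.57 in fed and −3.48 to −2.53 in starved libraries. Starved library 2 was at −4.71, the only starved library below the fed range. Leaving it out separates the groups, and the exact permutation p of 0.00794 is again the smallest possible.

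**Figure D2:**
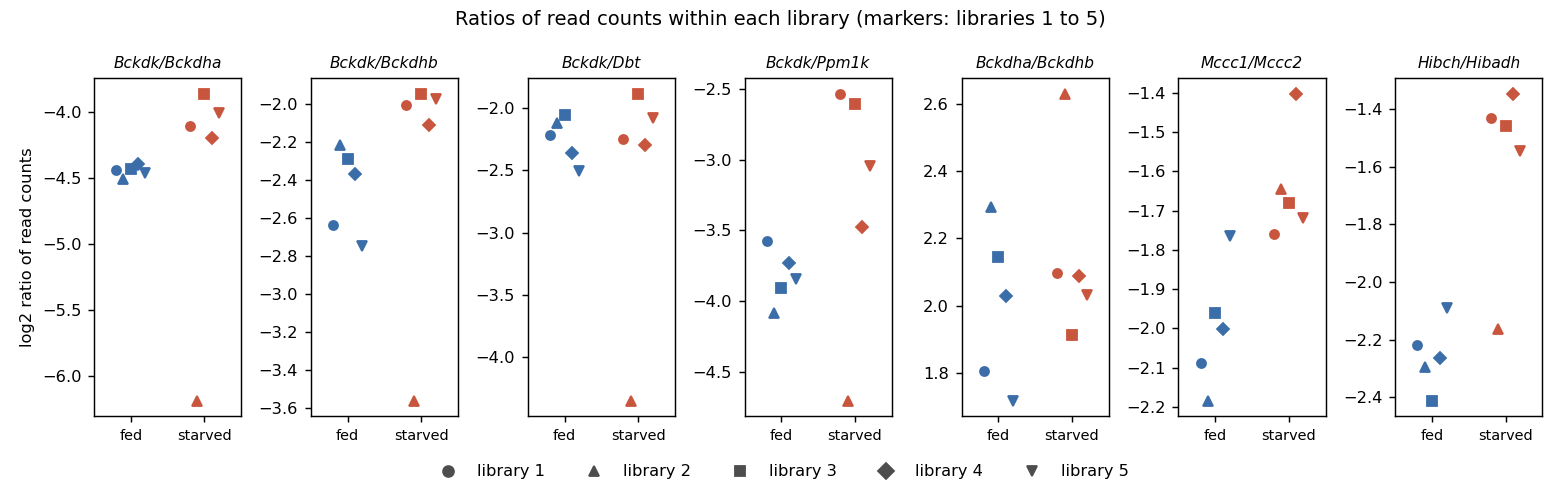
Log2 ratio of read counts of 7 gene pairs within each library (separate vertical axes, not from 0), fed in blue and starved in red, with 1 marker shape per library number. Starved library 2 (triangle) is the lowest point of the Bckdk ratios, at −6.19 for Bckdk to Bckdha, whereas for Mccc1 to Mccc2 the 5 starved libraries all lie above the 5 fed libraries.

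In the leucine branch no member passed with all libraries. Ivd, the isovaleryl-CoA dehydrogenase (chromosome 2, 118861954 to 118882909, plus strand), ranged from 127 to 146 CPM in fed and from 89.7 to 153 CPM in starved libraries. The lowest value was that of starved library 4, and the log2 fold change was −0.09 ± 0.14 (95% interval −0.39 to 0.20, edgeR adjusted p = 0.61). Without starved library 4 it turned to 0.04. Mccc1, which encodes the biotin-carrying subunit of methylcrotonyl-CoA carboxylase (chromosome 3, 35959312 to 36000678, minus strand), ranged from 17.3 to 19.6 CPM in fed liver. Starved libraries 1 to 5 held 22.1, 15.6, 19.7, 21.0 and 22.2 CPM, so that all but library 2 were above the fed range. Its log2 fold change was 0.14 ± 0.11 (edgeR adjusted p = 0.34), and 0.23 ± 0.08 (edgeR adjusted p = 0.0409) without starved library 2. With library totals alone as scaling it was −0.01, so its direction depended on the scaling.

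Mccc2, the partner subunit (chromosome 13, 99948530 to 100015639, minus strand), averaged 73.1 ± 5.64 CPM (fed) and 63.2 ± 11.2 CPM (starved) (log2 fold change −0.21 ± 0.13, edgeR adjusted p = 0.21). The log2 ratio of Mccc1 to Mccc2 reads was −2.09, −2.18, −1.96, −2.002 and −1.77 in fed libraries 1 to 5. In starved libraries 1 to 5 it was −1.76, −1.64, −1.68, −1.40 and −1.72. The groups did not overlap, although starved library 1 and fed library 5 nearly met, and the difference of 0.36 had an exact two-sided permutation p of 0.00794, the smallest that 5 against 5 libraries allow. After adjustment over the 7 ratios it did not pass (adjusted p = 0.0556), and a single ratio at this smallest p cannot pass by itself. Without starved library 2 the difference was again 0.36, with a larger exact permutation p of 0.0159 but a smaller adjusted p of 0.0222. It passed there only because other ratios of the 7 reached smaller p-values without that library, which eases the adjustment. Without starved libraries 2 and 4 the difference was 0.28 and did not pass (exact permutation adjusted p = 0.075).

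The valine branch held the only member that fell. Hibadh, the hydroxyisobutyrate dehydrogenase (chromosome 6, 52546228 to 52640389, minus strand), held 308, 276, 265, 311 and 305 CPM in fed libraries 1 to 5. It held 246, 140, 223, 184 and 247 CPM in starved libraries 1 to 5, each below every fed library. Starved libraries 2 and 4 were the lowest. The fall (95% interval −0.83 to −0.16, edgeR adjusted p = 0.0239) was −0.37 without starved library 2 (edgeR adjusted p = 0.0242), and the call was lost without starved library 4 (−0.43, edgeR adjusted p = 0.0636), fed library 4 (−0.47, 0.0549) or fed library 5 (−0.48, 0.0522). In absolute size, 38.8% of tested genes changed more.

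Hibch, the hydroxyisobutyryl-CoA hydrolase that acts just before Hibadh (chromosome 1, 52844929 to 52920986, plus strand), held 66.1, 56.2, 49.8, 64.8 and 71.7 CPM in fed libraries 1 to 5. Starved libraries 1 to 5 held 91.1, 31.2, 81.3, 72.3 and 84.7 CPM. Starved libraries 1, 3, 4 and 5 were above every fed library and starved library 2 was below all of them. The log2 fold change was 0.22 ± 0.24 (95% interval −0.29 to 0.74, edgeR adjusted p = 0.47), and 0.43 ± 0.12 (edgeR adjusted p = 0.0126) without starved library 2. For the log2 ratio of Hibch to Hibadh, means were −2.26 ± 0.12 in fed and −1.59 ± 0.33 in starved liver, with starved library 2 at −2.16, inside the fed range, and the other starved libraries between −1.54 and −1.35. The difference of 0.67 had an exact permutation p of 0.0159 and did not pass after adjustment (adjusted p = 0.0556), whereas without starved library 2 it was 0.81 (exact permutation p = 0.00794, adjusted p = 0.0185). Here too, leaving out the only starved library within the fed range separates the groups, and that p is the smallest possible. Both genes have GC boxes in the promoters printed above, as have 35.7% of all promoters, and a tie to the ratio was not tested.

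**Figure D3:**
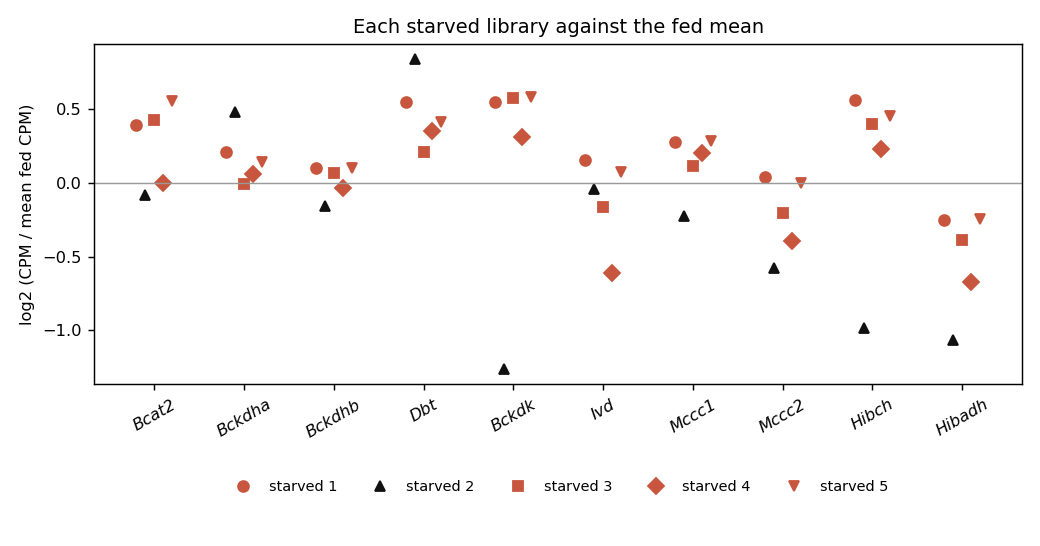
Log2 of each starved library's CPM over the mean fed CPM for the 10 members, starved library 2 in black and the other starved libraries in red. For Bckdk and Hibch, library 2 is at −1.26 and −0.98 while the other 4 starved libraries are above 0, and for Hibadh all 5 are below 0.

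Levels of different genes were compared per kilobase of the transcript with the longest coding sequence (RPKM). In fed liver Hibadh (161 ± 11.4 RPKM) and Bckdha (142 ± 7.41) were highest and overlapped each other. Bckdhb (45.9), Ivd (37.4), Mccc2 (34.4) and Hibch (33.7) followed as a chain whose neighbours overlapped. Dbt (17.8 ± 1.59 RPKM) was separate from its neighbours, and Mccc1 (7.43) and Bcat2 (7.15) overlapped above Bckdk (3.62 ± 0.198 RPKM). In starved liver Bckdha (162 ± 22.3 RPKM) was above Hibadh (114 ± 25.2 RPKM) with no overlap, and Dbt (25.0 ± 4.31 RPKM) overlapped Mccc2 (29.8 ± 5.28 RPKM). With the union of all annotated exons as length, Hibadh came below Bckdha and Bckdhb in fed liver (28.8 RPKM) and Mccc1 last (1.67 RPKM), so the order depends on the gene models.

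Other genes of the pathway, 12 listed and 11 tested, moved in both directions, with 2 that rose and 2 that fell (median log2 fold change 0.03). Of all 12796 tested genes 18.6% rose and 20.0% fell, and the counts of this and the following lists stand beside these shares. Hsd17b10, the mitochondrial dehydrogenase of isoleucine breakdown, which also serves in mitochondrial RNase P, rose from 105 ± 9.56 to 366 ± 109 CPM (log2 fold change 1.79 ± 0.20, edgeR adjusted p = 8.9e-05). Dld, the dihydrolipoamide dehydrogenase component shared by BCKDH and its sister complexes, rose by 0.41 ± 0.08, a change lost with library totals alone (0.25, edgeR adjusted p = 0.074). Slc25a44, the mitochondrial carrier of branched-chain amino acids, fell by 0.66 ± 0.21 on the log2 scale from 138 ± 15.0 to 87.1 ± 33.6 CPM. Starved library 2 held 145 CPM of it and the other starved libraries 63.7 to 85.9 CPM, and without starved library 2 the fall was −0.91. Acadsb, the acyl-CoA dehydrogenase of isoleucine breakdown, fell from 153 ± 6.55 to 112 ± 24.4 CPM (−0.45 ± 0.14). Both falls had an edgeR adjusted p of 0.026, and the calls were lost without fed library 4 or starved library 4, for Acadsb also without fed library 5, and for Slc25a44 also without fed library 2 or starved library 1 or 3 (edgeR adjusted p = 0.0505 to 0.0737). Aldh6a1, the semialdehyde dehydrogenase that follows Hibadh, was not called, at 536 ± 39.3 and 543 ± 17.2 CPM (95% interval of the log2 fold change −0.19 to 0.23). Aldh6a1 was singled out after its values were seen.

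**Figure D4:**
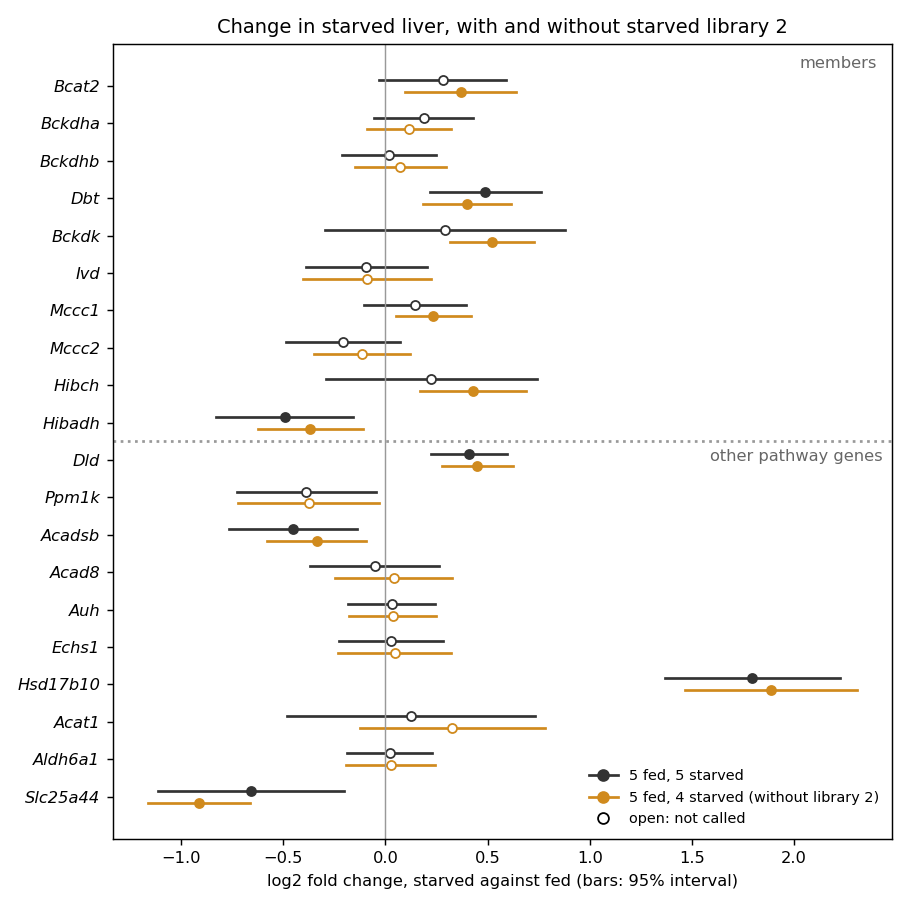
Log2 fold change (starved against fed) with its 95% interval for the 10 members and 10 of the 11 other tested pathway genes, from all libraries (dark) and without starved library 2 (orange), with open symbols for genes not called. Among the members, Dbt (0.49) and Hibadh (−0.49) are called with all libraries, and Bcat2, Bckdk, Mccc1 and Hibch in addition without library 2.

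Propionyl-CoA, an end product of isoleucine and valine, enters the citric acid cycle through a route of 7 listed genes, of which 2 rose and 1 fell (median −0.02). Mmab, which makes the adenosylcobalamin cofactor, fell from 23.4 ± 3.51 to 5.75 ± 2.19 CPM (log2 fold change −2.02 ± 0.25, edgeR adjusted p = 0.000203). Mut, the methylmalonyl-CoA mutase that uses this cofactor, rose from 189 ± 14.5 to 232 ± 11.5 CPM (0.30 ± 0.09), and Mmadhc, of cobalamin trafficking, rose by 0.33 ± 0.09. Neither rise was called with library totals alone (0.14 and 0.17), nor was that of Mut without fed library 1, 3 or 5.

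Among 6 sister components of the pyruvate and oxoglutarate dehydrogenase complexes, which share the architecture of BCKDH, 3 rose and 0 fell (median 0.41). Ogdh, the decarboxylase of the oxoglutarate complex, rose by 0.90 ± 0.20, Dlst, its core and the counterpart of Dbt, by 0.90 ± 0.10, and Pdha1, the pyruvate decarboxylase subunit, by 0.57 ± 0.12. The other 3 were not called, at −0.25 (Pdhb), 0.20 (Dlat) and 0.24 (Pdhx). Of 5 genes of biotin supply and of the other biotin carboxylases, 2 rose and 1 fell (median −0.29). Pcx, pyruvate carboxylase, rose by 0.70 ± 0.13 and Btd, the biotin-recycling biotinidase, by 0.80 ± 0.14, while Acaca, acetyl-CoA carboxylase of fatty acid synthesis, fell by 1.79 ± 0.16 on the log2 scale.

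Of 6 carriers that move branched-chain amino acids across the cell membrane, 3 rose and 1 fell (median 0.27). Slc43a1 rose from 9.74 ± 2.37 to 25.7 ± 13.5 CPM (1.40 ± 0.30), with 49.2 CPM in starved library 2, Slc3a2, the heavy chain of several carriers, rose by 0.47 ± 0.15, and Slc7a8 fell from 1.64 to 0.926 CPM. Slc7a6 was called (2.38 ± 0.78), but its starved mean of 1.85 CPM rested on 6.63 CPM in starved library 2, with 0.406 to 0.831 CPM in the others, and without that library the log2 fold change was 0.96 (edgeR adjusted p = 0.0389). Without starved libraries 2 and 4 it did not pass, and neither did Slc3a2 (0.84 and 0.24). Slc7a6 also lost its call without fed library 1, 2, 4 or 5 and with limma-voom (adjusted p = 0.0782), and Slc3a2 without fed library 1, 4 or 5 or starved library 4 and with library totals alone (edgeR adjusted p = 0.0904). Of 6 transcription factors and coactivators tied to this pathway or to fasting, 1 rose and 3 fell (median −0.21). Ppargc1a, a coactivator of fasting genes, rose by 2.18 ± 0.16. Srebf1, a lipogenic factor (−3.41 ± 0.34), Ppara, the fatty acid receptor (−1.20 ± 0.21), and Mlxipl, the carbohydrate response factor known to raise Bckdk (from 58.6 ± 10.2 to 29.3 ± 5.29 CPM), fell.

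The genes whose 10-library profile lay nearest to that of Dbt were Gsto1, Jmjd6 and Dcn, with a root mean square difference of 0.10 on the log2 scale after each profile was centred on its own fed mean. For Hibadh they were Fam172a (0.07), Acadsb (0.07) and Cryz (0.08). The search ran over 12087 genes, and all profiles share the same libraries.

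Hepatocyte markers (7 of 7 measured) summed to 85891 to 127878 CPM in fed and 111401 to 183431 CPM in starved libraries, with the highest sum in starved library 2, and 3 rose and 1 fell. Several lists of other cell types moved with starvation. Kupffer cell markers fell in 6 of 7 genes and summed to 364 to 596 CPM in fed and 139 to 298 CPM in starved libraries. Liver endothelial markers rose in 1 and fell in 4 of 7 (248 to 293 and 201 to 255 CPM), and stellate cell and fibroblast markers rose in 1 and fell in 3 of 7 (423 to 490 and 425 to 621 CPM, with Dcn alone among the rises). Cholangiocyte markers fell in 1 of 5 (46.3 to 57.2 and 15.0 to 40.6 CPM). Most of that sum was Spp1, the gene that fell (means of 47.2 CPM fed and 24.2 CPM starved). Krt19, Krt7, Epcam and Sox9 had means of 0.721 to 1.63 CPM and were not called, Krt19 and Krt7 being lower and Epcam and Sox9 higher in starved liver. Neutrophil markers rose in 3 of the 4 measured (3.58 to 5.64 and 3.94 to 24.9 CPM), and the highest sums were those of starved libraries 4 (24.9 CPM) and 2 (21.1 CPM). Lymphocyte markers were called in 0 of 3 tested (2.61 to 3.76 and 0.481 to 3.20 CPM; 1 had an unadjusted p under 0.05). Red blood cell markers fell in 1 of 2 tested (Alas2), with Hba-a1, Hba-a2 and Hbb-b1 listed at 0 in every library (454 to 648 and 167 to 599 CPM). Most of that sum was the beta-globin gene Beta-s, with means of 524 CPM (fed) and 284 CPM (starved). It was not called (log2 fold change −0.88, edgeR adjusted p = 0.0515), although both tested markers were lower with an unadjusted p under 0.05. Exocrine pancreas markers fell in 1 of 3 tested with Amy2a5 at 0 (19.1 to 28.5 and 7.001 to 12.3 CPM). Most of that sum was Cela1, the gene that fell (means of 23.2 CPM fed and 8.31 CPM starved). Cpa1 and Pnlip, with means of 0.312 to 0.541 CPM, were not called and were higher in starved liver (log2 fold change 0.37 and 0.47). Markers of skeletal muscle, a tissue rich in Bcat2, summed to at most 0.983 CPM and those of adipocytes to at most 4.78 CPM in any library, and none was tested. The part of these cell types in the changes of Dbt and Hibadh was not tested.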

How the data were processed

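Total RNA of 10 mouse livers was sequenced, and the labels' protocols name a stranded TruSeq kit. The submitters' processing notes list edgeR 3.6.4, HTSeq, Bowtie2 2.0.0, TopHat2 2.0.0 and CASAVA 1.8.2, and build mm10. No annotation or strand setting is named in them. The authors deposited raw read counts per gene symbol, 1 file per library. Rows of unassigned reads, which name no gene, were left out of library sizes and tests (15.96% to 24.7% of tallied reads in no gene and 38.6% to 48.4% aligned to more than 1 place). Reads tallied as aligned to several places are in no gene's count.

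From these counts, genes were filtered with filterByExpr, which kept 12796 of 23420, scaled by TMM and tested with edgeR 4.0.16 in R 4.3.3 (quasi-likelihood test, Benjamini-Hochberg adjustment over all tested genes, called under 0.05). "Rose" and "fell" are used for called genes. Log2 ratios of 7 gene pairs (0.5 added to each count) were compared by exact two-sided permutation tests over libraries. Profiles for the nearest genes were log2 of CPM plus 0.5. Each mouse is 1 library and all p-values rest on the spread between these mice. The fit was tested on simulated data. Gene coordinates are from GENCODE M21 (GRCm38, which is mm10) and promoters from RefSeq (GRCm38.p6), matched by symbol for 9 of 10 members. The text names all members, from each other pathway list at most 3 called genes per direction, by size of change (the 2 most abundant if none was called), and for Dbt and Hibadh, the called members with the largest rise and fall, the 3 genes nearest in profile, leaving out unnamed gene models. Named outside this rule are Bcat1, Ppm1k (part of a ratio), Aldh6a1, Pdhb, Dlat and Pdhx, genes that overlap members, and some cell type markers. Members, lists and tests were chosen with earlier results of these data known. Ly6g and Hbb-bt, of the marker lists, were not analysed here. Alternatives were DESeq2 1.42.0 (size factors and Wald test), limma-voom (3.58.1), library totals alone, no filter, 1 CPM in 5 libraries, a replicate block and leaving out each library. Leaving out starved libraries 2 and 4 together was added after the data were seen, and starved library 2 was singled out among the single-library refits for its values in these data. The values of 1 gene of the other pathway genes are not reported here.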

Additional observations from a re-analysis of the deposited data

Results flagged for a closer look

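In 11 of 76 groups of 5 libraries tested, 1 library lay far from the other 4 by Dixon's gap ratio, where chance marks about 1 in 20 independent groups. The groups tested here share the same libraries, and several ratios reuse the Bckdk counts. The flags are therefore not independent, and their number cannot be set against that rate. In 10 of the 11 it was starved library 2. Bckdk stood there at 5.13 CPM, against 15.3 to 18.5 CPM in the other starved libraries. The log2 ratios of that library were −6.19 for Bckdk to Bckdha (−4.20 to −3.86 in the others), −3.56 for Bckdk to Bckdhb (−2.11 to −1.95), −4.35 for Bckdk to Dbt (−2.29 to −1.89), 2.63 for Bckdha to Bckdhb (1.91 to 2.10) and −2.16 for Hibch to Hibadh (−1.54 to −1.35). Among the other genes it held 145 CPM of Slc25a44 (63.7 to 85.9 in the others), 49.2 CPM of Slc43a1 (16.03 to 23.1), 6.63 CPM of Slc7a6 (0.406 to 0.831) and 66.2 CPM of Srebf1 (16.9 to 23.6). The remaining case was Hsd17b10 in fed library 1, at 122 CPM against 96.1 to 103 CPM in the other fed libraries.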

How the results depend on the processing

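Of 180 refits of single members, 163 kept direction and side of the threshold, 3 lost a call (all Hibadh), 8 gained one and 6 turned direction. Of 376 refits of the other named genes, 349 kept both and 27 lost the call, and of 91 for the ratios, 81 kept both. With library totals alone Bckdhb was −0.14 and Mccc1 −0.0082. Leaving out starved libraries 2 and 4, an alternative chosen after seeing the data, gave 6 members called (beside 40.9% of tested genes), Ivd at 0.049, and log2 ratio differences of 0.46 (Bckdk/Bckdha), 1.10 (Bckdk/Ppm1k) and 0.78 (Hibch/Hibadh), each with an exact permutation adjusted p of 0.0417, and 0.18 (Bckdk/Dbt, 0.27), 0.48 (Bckdk/Bckdhb, 0.0625), 0.28 (Mccc1/Mccc2, 0.075) and 0.018 (Bckdha/Bckdhb, 0.91), which did not pass. The cause was not tested. The ratios that passed share an exact permutation p of 0.0179, the smallest possible with the libraries left. In each of them starved library 2, left out here, was the only starved library not above every fed library.

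Leaving out each library in turn gave 1 to 6 members called, 2 to 5 other pathway genes and 3981 to 5613 of all tested genes. Fold changes ran from −0.036 to 0.071 for Bckdhb and −0.16 to 0.035 for Ivd. Ratio differences ran from −0.18 to 0.41 (Bckdk/Bckdha), 0.039 to 0.44 (Bckdk/Bckdhb), −0.49 to 0.12 (Bckdk/Dbt), 0.37 to 0.91 (Bckdk/Ppm1k), 0.04 to 0.23 (Bckdha/Bckdhb), 0.30 to 0.42 (Mccc1/Mccc2) and 0.61 to 0.81 (Hibch/Hibadh).

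The labels mention pairs of mice but not that a number marks a pair. Deviations of same-numbered libraries correlated at −0.06 to 0.23, and 1 of 5 numbers matched itself best. A fit with the replicate block called 2 members and 4410 of all tested genes, and Slc7a6 lost its call (adjusted p = 0.0617). With the block, the ratio tests cannot go below an exact p of 0.0625 (adjusted p = 0.22 for Mccc1/Mccc2 and Hibch/Hibadh).

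The lowest count behind a member was 96 reads (Bckdk, starved library 2).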
